A study of Mus musculus with 7 samples.

Results

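The enzymes described here are 8 mouse genes that add or remove acyl groups on cysteine conjugates and amino acids, or cleave cysteine conjugates: the N-acetyltransferase genes Nat8, Nat8f1, Nat8f2 and Nat8l, the aminoacylase genes Acy1, Acy3 and Aspa, and the cysteine conjugate lyase gene Kyat1. They are 8 of the 45706 genes in the deposited tables, and all 8 had enough reads to be among the 15399 genes tested. The genes were selected on membership of these enzyme families with the ergothioneine contrast of these kidneys already known. Their differences between the groups are therefore given as a description, with the call made over the whole table and without p-values of their own.

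The kidneys came from 7 male Slc7a9-/- mice aged 6 months. Of these, 4 had received L-ergothioneine in the drinking water at 16 mg/kg/day and 3 were untreated. Slc7a9 encodes the light chain of the kidney's cystine transporter, and mice without it are used as a model of cystinuria. All 7 mice carry the same genotype, so the comparison is between treated and untreated mutants, and wild-type kidneys were not analysed here. RNA was taken from whole frozen kidney, in which fewer cells of a type and less RNA per cell cannot be told apart.

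Cystine stones form in cystinuria because cystine is poorly soluble. Ergothioneine is a sulfur-containing histidine derivative taken up from food. The kidney handles many sulfur compounds by the mercapturate pathway. Glutathione conjugates are trimmed to cysteine S-conjugates at the brush border, and NAT8, an acetyltransferase of the endoplasmic reticulum of proximal tubule cells, acetylates these with acetyl-CoA to mercapturates that leave in the urine. Aminoacylase 3, encoded by Acy3, takes the acetyl group off again, and cysteine conjugate β-lyases, of which the Kyat1 product is an example, split the cysteine conjugate to a reactive thiol. Aminoacylase 1 acts on N-acetylated amino acids. The pair encoded by Nat8l and Aspa makes and splits N-acetylaspartate, a metabolite best known from the brain.

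Libraries held between 14843899 and 19791575 counts. Short non-coding RNA took 12.2% and 16.2% of TPM in untreated kidneys 1 and 2, but 37.5% to 48.7% in the other 5 kidneys. On the TPM scale the median gene shifted by -0.31 log2 units between ergothioneine and untreated kidneys, against -0.0031 on the count scale. Group differences below are on the count scale, as CPM (counts scaled to a common library size by edgeR's TMM method), and levels between genes are on the TPM scale. The labels number the mice but do not give litter, cage or time of collection, so p-values measure only the spread among kidneys of a group.

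Of the 8 enzyme genes, 3 were called lower in ergothioneine kidneys, 0 were called higher and 5 were not called. DESeq2 called 4 lower and limma-voom 3, and 0 higher in each. A call means an adjusted p under 0.05 by edgeR's quasi-likelihood test with Benjamini-Hochberg adjustment over all tested genes. Over the whole table, 7.16% of tested genes were called, 3.58% higher and 3.57% lower. On log2(TPM + 1) the split over all genes was 54 higher and 1484 lower, against 552 higher and 550 lower on counts. The called genes were Nat8, Nat8l and Acy1. All 8 log2 fold changes were below 0, as were 50.7% of those of all tested genes, and their median was -0.31 against -0.0031 for all tested genes. CPM did not overlap between the groups for 5 of the 8 (Nat8, Nat8l, Acy1, Acy3 and Aspa), and 18.6% of tested genes had groups that do not overlap. Since the genes were chosen with this contrast known, nothing is read from these shares.

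**Figure D1:**
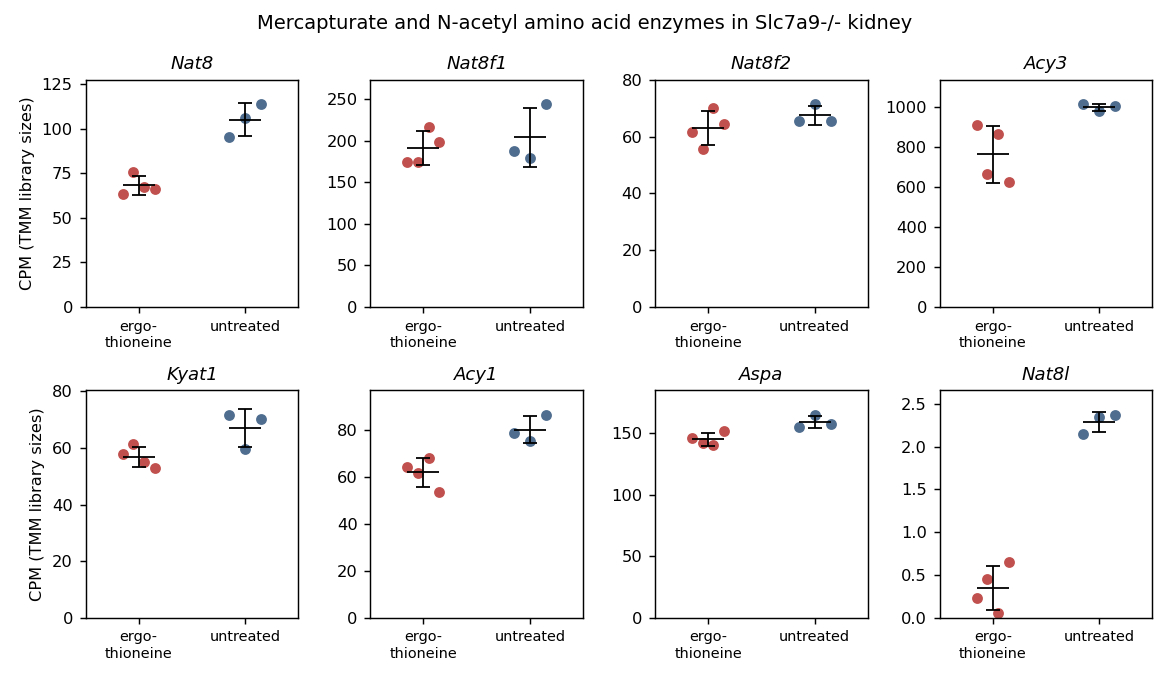
CPM of the 8 enzyme genes in each kidney (points), with mean and SD (bars), in 4 ergothioneine kidneys on the left and 3 untreated kidneys on the right of each panel. The groups lie farthest apart for Nat8l, at a mean of 0.349 CPM in ergothioneine kidneys and 2.29 CPM in untreated kidneys, while the points of Nat8f1, Nat8f2 and Kyat1 overlap.

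The gene for the mercapturate-forming enzyme itself, Nat8, lies on chromosome 6 (GRCm38, 85830388 to 85832082, minus strand), in a row of 9 NAT8-family genes that all sit on the minus strand within 226.653 kb. The row runs Nat8f7, Nat8f3, Nat8f6, Nat8f5, Nat8, Nat8f2, Nat8f4, Nat8f1 and the pseudogene Nat8b-ps, from 85706727 to 85933379. Because the copies resemble each other, how far reads can be assigned to them bears on every value of the family. The stretch of 60 coding bases without gaps in which the 8 intact genes differ most (GENCODE M21 transcripts on GRCm38, 5′ to 3′) is shown for that reason. Capitals mark bases that differ from Nat8 at the same position of the alignment.
Nat8: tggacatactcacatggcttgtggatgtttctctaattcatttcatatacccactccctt
Nat8f1: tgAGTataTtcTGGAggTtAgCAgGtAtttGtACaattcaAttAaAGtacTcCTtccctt
Nat8f2: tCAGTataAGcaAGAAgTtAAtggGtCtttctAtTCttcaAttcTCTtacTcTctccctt
Nat8f4: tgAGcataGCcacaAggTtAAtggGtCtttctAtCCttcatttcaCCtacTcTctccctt
Nat8f5: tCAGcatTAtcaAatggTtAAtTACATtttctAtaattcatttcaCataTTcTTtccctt
Nat8f3: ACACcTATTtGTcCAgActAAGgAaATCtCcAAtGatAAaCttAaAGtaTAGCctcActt
Nat8f6: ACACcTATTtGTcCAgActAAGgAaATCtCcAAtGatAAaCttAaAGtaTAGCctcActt
Nat8f7: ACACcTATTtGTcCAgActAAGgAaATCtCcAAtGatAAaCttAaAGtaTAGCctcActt

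In this stretch 47 of 60 positions varied. Nat8f1 and Nat8f2 each differed from Nat8 at 24 positions, whereas Nat8f3, Nat8f6 and Nat8f7 were identical to each other. Over their whole coding sequences Nat8f3 and Nat8f6 shared 99.7% of bases, and Nat8f7 shared 99.6% with each of them. Nat8 shared 84.2% with Nat8f1, 80.1% with Nat8f5 and 76.7% with Nat8f2, and Nat8f2 shared 89.1% with Nat8f4. Nat8l, which lies apart on chromosome 5, shared 60.6% to 63.1% with the family genes of chromosome 6.

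These likenesses set which counts are firm. Of all 75-base stretches of a gene's transcripts, 3.43% in Nat8, 9.42% in Nat8f1 and 10.8% in Nat8f2 also occur in another gene. In Nat8f4 the share was 10.9%, with Nat8f2, and the authors' expected counts of these 2 genes were not whole in 6 of the 7 libraries. In Acy3 the share was 3.41%, with the predicted gene Gm48931. The share was 48.4% in Nat8f3, 58.3% in Nat8f6 and 75.3% in Nat8f7, and the authors' expected counts of these 3 genes were not whole in any of the 7 libraries. How reads were split among Nat8f3, Nat8f6 and Nat8f7 is therefore uncertain, and their sum is given beside them. Nat8f5 and Nat8f6 also overlap on the same strand, over 135 exon bases or 13.7% of the exons of Nat8f5, which had 142 to 441 counts per library where Nat8f6 had 934 to 2810. Nat8l, Acy1, Aspa and Kyat1 share no such stretch with another gene.

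Nat8 had 63.1, 75.6, 67.5 and 66.4 CPM in ergothioneine kidneys 1 to 4, against 95.1, 106 and 114 CPM in untreated kidneys 1 to 3. Every ergothioneine kidney was below every untreated kidney, and the gap between the groups was wider than the range within the ergothioneine group. The means were 68.1 ± 5.31 CPM in ergothioneine kidneys and 105.0 ± 9.38 CPM in untreated kidneys (SD, n = 4 and 3), a log2 fold change of -0.62 ± 0.07 (SE) or 1.54-fold lower, and Nat8 was called lower. Its log2 fold change lay between -0.999 and -0.56 in 20 alternative fits, and between -0.69 and -0.56 in those that left out each kidney. Nat8 was past the threshold in all 20. These include fits on TPM as deposited, where the median gene was itself at -0.31 or -0.37. They also include a fit with 1 untreated kidney, whose calls are not comparable.

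Nat8f1 (85910154 to 85915687) and Nat8f2 (85865422 to 85869158) lie at higher coordinates than Nat8. Nat8f1 had 174, 174, 216 and 199 CPM in ergothioneine kidneys, against 188, 180 and 244 CPM in untreated kidneys. Nat8f2 had 61.5, 55.8, 70.1 and 64.3 CPM in ergothioneine kidneys, against 65.5, 71.5 and 65.6 CPM in untreated kidneys. The groups overlapped for both genes, and neither was called. The log2 fold change was -0.09 ± 0.12 (SE) for Nat8f1 and -0.10 ± 0.07 (SE) for Nat8f2. Without untreated kidney 3, the highest of Nat8f1, that of Nat8f1 was 0.05. The exons of Nat8f1 overlap those of Tprkb on the opposite strand over 35.5% of their length, and the sources used here do not say whether strand was used in counting.

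The 6 paralogs that are not among the 8 enzymes were Nat8f3 to Nat8f7 and Nat8b-ps. Nat8b-ps was listed at 0 in 6 libraries and was not tested. Of the 5 tested with edgeR, 4 fell (Nat8f3, Nat8f5, Nat8f6 and Nat8f7) and 0 rose, as with DESeq2 and limma-voom; at an unadjusted p under 0.05, 4 were lower and 1 was higher. The median log2 fold change was -1.20. Nat8f6, the most abundant of them in CPM, had 53.0, 75.4, 72.0 and 81.0 CPM in ergothioneine kidneys, against 147, 186 and 180 CPM in untreated kidneys. It fell by 1.28 ± 0.16 (SE) on the log2 scale (edgeR, Benjamini-Hochberg adjusted p = 0.0062).

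Nat8f7 had 15.7, 20.8, 17.6 and 20.6 CPM in ergothioneine kidneys, against 38.2, 42.2 and 48.7 CPM in untreated kidneys, and fell by 1.20 ± 0.11 (SE) log2 units (edgeR adjusted p = 7.8e-06). Nat8f3 had 20.04, 21.3, 24.8 and 19.7 CPM in ergothioneine kidneys, against 38.3, 41.8 and 44.05 CPM in untreated kidneys, and fell by 0.95 ± 0.09 (SE) log2 units (edgeR adjusted p = 3.7e-06). For both genes the groups were far apart relative to their own ranges. The sum of Nat8f3, Nat8f6 and Nat8f7, which does not depend on how reads were split among these 3 genes but leaves out Nat8f5, was 110 ± 14.8 CPM in ergothioneine kidneys and 256 ± 27.7 CPM in untreated kidneys (SD, n = 4 and 3). The sums ranged from 88.7 to 121 CPM in ergothioneine kidneys and from 224 to 273 CPM in untreated kidneys, a ratio of means of 2.31-fold lower.

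Nat8f5, next to Nat8, had 8.35, 14.4, 8.30 and 8.23 CPM in ergothioneine kidneys, against 24.5, 28.1 and 28.3 CPM in untreated kidneys. Ergothioneine kidney 2 stood above the other 3 of its group and still below all untreated kidneys. Nat8f5 fell by 1.45 ± 0.19 (SE) log2 units (edgeR adjusted p = 0.0028). A further fit set the ergothioneine kidneys against untreated kidney 3 alone, without the 2 untreated kidneys low in short non-coding RNA. There Nat8f5 and Nat8f6 had log2 fold changes of -1.52 and -1.35, against -1.45 and -1.28 in the main test. With 1 untreated kidney that group has no measured spread, so calls in this fit are not comparable with those of the main test.

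Nat8f4 went the other way without a call. It had 13.7, 11.03, 11.7 and 12.5 CPM in ergothioneine kidneys, against 9.29, 10.7 and 10.3 CPM in untreated kidneys. Its ergothioneine values were all above its untreated values by a small margin. The log2 fold change was 0.28 ± 0.11 (SE; edgeR adjusted p = 0.16), and it was -0.08 on log2(TPM + 1).

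**Figure D2:**
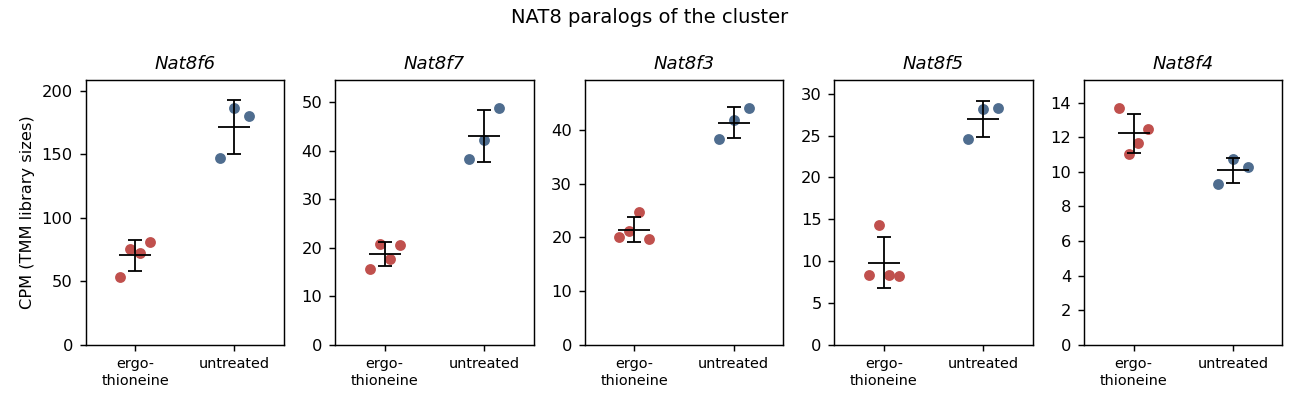
CPM of 5 NAT8 paralogs of the chromosome 6 cluster in each kidney (points), with mean and SD (bars), ergothioneine left and untreated right. Nat8f6, Nat8f7, Nat8f3 and Nat8f5 are lower in every ergothioneine kidney than in any untreated kidney, and Nat8f4 lies between 9.29 and 13.7 CPM throughout.

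Set along the chromosome, the 5 genes from Nat8f7 to Nat8 were those called lower, and the 3 tested genes beyond Nat8 (Nat8f2, Nat8f4 and Nat8f1) were not called. This division was noticed after the values were seen and was not tested. How reads were split among Nat8f3, Nat8f6 and Nat8f7 is uncertain, so a change in 1 of them could appear in all 3. Nat8f5 also overlaps Nat8f6, and the 5 calls are not 5 separate observations. With all reads of the cluster summed into a single gene, a sum added after its genes had been seen, the cluster had 410, 448, 488 and 472 CPM in ergothioneine kidneys, against 606, 666 and 735 CPM in untreated kidneys. The sum was 454 ± 33.9 CPM in ergothioneine kidneys and 669 ± 64.5 CPM in untreated kidneys (SD, n = 4 and 3). Its log2 fold change was -0.56 ± 0.07 (SE), and -0.69 to -0.49 in 8 further fits without each kidney or against untreated kidney 3 alone. It is given as a description, since it holds Nat8, Nat8f1 and Nat8f2.

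**Figure D3:**
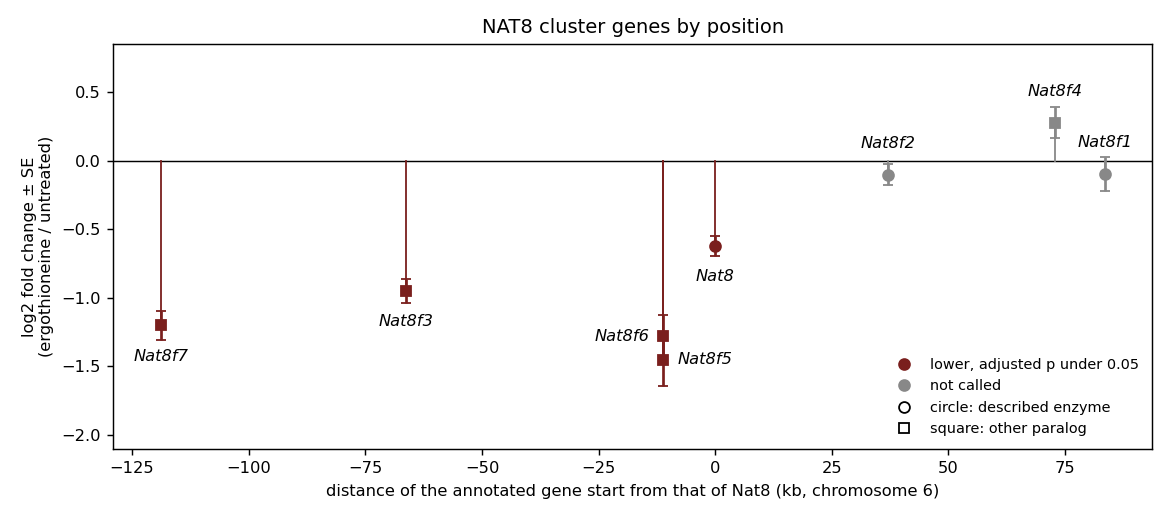
Log2 fold change ± SE (ergothioneine over untreated) of 8 NAT8 cluster genes against the distance of the annotated gene start from that of Nat8. Dark points are called lower and grey points are not called. The 5 genes at and left of Nat8 lie between -1.45 and -0.62, and the 3 to its right between -0.10 and 0.28. The split of reads among Nat8f3, Nat8f6 and Nat8f7 is uncertain.

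The makeup of the cluster's reads differed accordingly. Nat8f6 gave 15.4 ± 1.97% of cluster counts in ergothioneine kidneys and 25.6 ± 2.04% in untreated kidneys, and Nat8f1 gave 41.9 ± 2.27% in ergothioneine kidneys and 30.4 ± 3.16% in untreated kidneys (SD, n = 4 and 3). Neither share overlapped between the groups. Nat8 itself gave 15.04 ± 1.39% in ergothioneine kidneys and 15.7 ± 0.22% in untreated kidneys, which overlapped. These are shares of a total that itself differed, so a higher share of Nat8f1 goes with a level whose groups overlapped.

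Promoters are printed for members of the cluster on each side of that division and for Acy1, the other called enzyme with an entry. They are RefSeq windows of GRCm38.p6, from 250 bases before to 50 after the RefSeq start, 5′ to 3′ on the gene's strand. RefSeq starts can differ from the GENCODE starts used for gene positions. That of Nat8 was 85832279 against 85832082 in GENCODE, so its window lies outside the gene as given above. Those of Nat8f6 and Nat8f7 were 85809877 and 85708561, against 85820954 and 85713205 in GENCODE. Of the 2 entries of Nat8 the nearer to the GENCODE start was used. Capitals mark matches, on either strand, to an E-box (CACGTG), a nuclear receptor half-site (AGGTCA), an HNF4A site (CAAAGTCCA), an HNF1 half-site (GTTAAT), a D-box (TTATGTAA) or a TATA box (TATAAA). HNF1 and HNF4A are transcription factors of the proximal tubule.
Nat8, chr6:85832230-85832529, minus strand: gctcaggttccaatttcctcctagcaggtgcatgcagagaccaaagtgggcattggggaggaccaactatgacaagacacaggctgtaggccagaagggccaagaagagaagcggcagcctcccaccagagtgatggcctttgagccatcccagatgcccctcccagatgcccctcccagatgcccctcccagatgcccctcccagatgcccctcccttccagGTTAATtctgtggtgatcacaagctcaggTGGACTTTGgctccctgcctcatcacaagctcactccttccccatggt
Nat8f5, chr6:85820923-85821222, minus strand: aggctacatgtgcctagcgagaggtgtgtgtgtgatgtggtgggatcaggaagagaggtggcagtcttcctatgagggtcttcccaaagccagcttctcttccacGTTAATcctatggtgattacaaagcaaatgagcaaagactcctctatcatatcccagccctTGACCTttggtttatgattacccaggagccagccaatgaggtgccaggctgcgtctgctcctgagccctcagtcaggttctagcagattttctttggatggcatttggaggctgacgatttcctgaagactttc
Nat8f1, chr6:85915583-85915882, minus strand: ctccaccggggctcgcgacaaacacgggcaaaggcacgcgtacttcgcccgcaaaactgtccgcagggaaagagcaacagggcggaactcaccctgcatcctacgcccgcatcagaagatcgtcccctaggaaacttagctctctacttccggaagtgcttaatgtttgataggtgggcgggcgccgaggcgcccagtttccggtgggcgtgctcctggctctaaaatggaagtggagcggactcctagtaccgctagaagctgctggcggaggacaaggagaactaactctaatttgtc
Nat8f2, chr6:85869088-85869387, minus strand: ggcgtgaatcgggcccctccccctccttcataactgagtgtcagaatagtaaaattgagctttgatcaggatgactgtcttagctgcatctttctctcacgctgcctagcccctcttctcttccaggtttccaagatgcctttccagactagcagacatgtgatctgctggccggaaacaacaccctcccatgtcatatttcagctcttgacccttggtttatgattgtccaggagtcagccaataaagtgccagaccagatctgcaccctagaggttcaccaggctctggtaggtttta
Acy1, chr9:106438187-106438486, minus strand: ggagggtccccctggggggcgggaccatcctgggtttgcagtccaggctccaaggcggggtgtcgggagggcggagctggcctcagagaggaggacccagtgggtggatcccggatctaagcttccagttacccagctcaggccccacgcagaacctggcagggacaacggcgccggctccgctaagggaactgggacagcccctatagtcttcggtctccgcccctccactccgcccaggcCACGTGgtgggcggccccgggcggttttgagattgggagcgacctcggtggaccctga

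Nat8 and Nat8f5, which were both called lower, each held an HNF1 half-site, 27 bases before the start in Nat8 and 145 bases before it in Nat8f5. Nat8f3, Nat8f6 and Nat8f7, also called lower and with promoter entries, held no HNF1 half-site. Of all 32851 promoters in the table, 7.10% hold one. Nat8 also held the HNF4A letters, which occur in 0.475% of promoters, from 2 bases after its RefSeq start. Starts here are those of RefSeq throughout. Nat8f5 held a nuclear receptor half-site 84 bases before its start (16.3% of promoters). Among the genes that were not called, Nat8f1 and Nat8f2 held none of the 6 motifs in capitals, and Nat8f4 held a nuclear receptor half-site 244 bases before its start. Nat8f6 and Nat8f7 held the TATA letters 88 and 96 bases before their starts (13.6% of promoters), and Acy3 and Aspa held them too. Of 3 further motifs searched, which are not in capitals, the CCAAT box (CCAAT, 37.4% of promoters) was found in Nat8, Nat8f2, Nat8f5, Nat8f6, Nat8f7, Acy1, Aspa and Kyat1. The antioxidant response element core (TGACNNNGC, 12.4% of promoters) was found in Kyat1, and the full HNF1 site in none of the 12 promoters. Acy1 held an E-box 8 bases before its start (7.15% of promoters). The motifs in capitals do not overlap each other. The match is one of letters in these windows, and no binding was measured.

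Next in the pathway, Acy3 (chromosome 19, 3986570 to 3990007, plus strand), whose product deacetylates mercapturates, had 908, 664, 864 and 623 CPM in ergothioneine kidneys, against 1015, 979 and 1003 CPM in untreated kidneys. The untreated kidneys agreed closely, while ergothioneine kidneys 2 and 4 were well below kidneys 1 and 3 of their group. All ergothioneine values were below all untreated values. The means were 765 ± 142 CPM in ergothioneine kidneys and 999 ± 18.2 CPM in untreated kidneys (SD, n = 4 and 3), a log2 fold change of -0.39 ± 0.13 (SE), and Acy3 was not called. It was called lower in 4 of 20 alternative fits: DESeq2 on the same counts, edgeR without ergothioneine kidney 1, and the fits on TPM as deposited. On log2(TPM + 1) and log2(TPM + 0.1) the median of all tested genes was itself at -0.31 and -0.37. Once short non-coding genes were taken out of the TPM scale, Acy3 was not called.

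Kyat1 (chromosome 2, 30185124 to 30205847, minus strand) encodes a cysteine conjugate β-lyase that also converts kynurenine to kynurenic acid. It had 57.9, 61.4, 55.0 and 52.9 CPM in ergothioneine kidneys, against 71.8, 59.5 and 70.3 CPM in untreated kidneys. The groups overlapped through untreated kidney 2, which was below ergothioneine kidney 2. The log2 fold change was -0.24 ± 0.07 (SE), not called. Kyat1 was called in 4 of 20 alternative fits. Among these were the fit without untreated kidney 2, at -0.32, and the fits on TPM as deposited, where the median gene was itself at -0.31 or -0.37.

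Acy1 (chromosome 9, 106432981 to 106438319, minus strand) encodes aminoacylase 1, which releases amino acids from N-acetylated forms in the cytosol. It had 64.5, 61.7, 68.3 and 53.7 CPM in ergothioneine kidneys, against 78.7, 75.3 and 86.6 CPM in untreated kidneys. Every ergothioneine kidney was below every untreated kidney, with ergothioneine kidney 4 the lowest. The means were 62.0 ± 6.19 CPM in ergothioneine kidneys and 80.2 ± 5.78 CPM in untreated kidneys (SD, n = 4 and 3). The log2 fold change was -0.37 ± 0.08 (SE) or 1.29-fold lower, and Acy1 was called lower. After short non-coding genes were taken out of the TPM scale, its log2 fold change was also -0.37 and it was not called.

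Aspa (chromosome 11, 73304992 to 73329596, minus strand) encodes aspartoacylase, or aminoacylase 2, which splits N-acetylaspartate to aspartate and acetate. It had 146, 142, 140 and 151 CPM in ergothioneine kidneys, against 155, 165 and 158 CPM in untreated kidneys. The groups did not overlap, but the gap between them was smaller than the range within each. Its log2 fold change was -0.14 ± 0.05 (SE). Aspa had the smallest SD over the 7 kidneys of the 8 enzymes (0.085 log2 units), and it was not called in the main test or in any of 20 alternative fits.

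Nat8l (chromosome 5, 33995984 to 34005916, plus strand) encodes the N-acetyltransferase that makes N-acetylaspartate from aspartate and acetyl-CoA, and is known from neurons and brown adipocytes. It had counts of 4, 9, 1 and 12 in ergothioneine kidneys, against 38, 35 and 37 in untreated kidneys, which is 0.227, 0.455, 0.0584 and 0.654 CPM in ergothioneine kidneys and 2.15, 2.35 and 2.37 CPM in untreated kidneys. The untreated kidneys were nearly equal and each was above 3 times the highest ergothioneine kidney. The means were 0.349 ± 0.261 CPM in ergothioneine kidneys and 2.29 ± 0.119 CPM in untreated kidneys (SD, n = 4 and 3). The log2 fold change was -2.66 ± 0.40 (SE), the 12th lowest of all 15399 tested genes. Nat8l was called lower in the main test and in 20 of 20 alternative fits. These include the fit against untreated kidney 3 alone, whose calls are not comparable. With so few reads per library the fold of Nat8l is loosely set, and on log2(TPM + 1) it was -0.43.

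Other genes that mark fat moved with Nat8l. Of 10 tested adipocyte markers 7 fell and 0 rose, and of 6 tested brown fat markers 4 fell and 0 rose (edgeR; at an unadjusted p under 0.05, 8 and 4 were lower and 0 were higher, and DESeq2 and limma-voom called 0 higher). Against untreated kidney 3 alone 1 adipocyte marker was called higher and 4 lower. Ucp1, the uncoupling protein of brown fat, had 0, 0.607, 1.75 and 0.981 CPM in ergothioneine kidneys, against 17.3, 17.3 and 28.1 CPM in untreated kidneys (edgeR adjusted p = 0.010). Cidea, a lipid droplet protein, was at 0 in 2 ergothioneine kidneys and at 0.164 and 0.253 CPM in the other 2, against 2.55 to 3.14 CPM in untreated kidneys. Plin1, which coats the lipid droplets of adipocytes, fell by 3.23 ± 0.32 (SE) log2 units and Adipoq, the adipocyte hormone adiponectin, fell by 2.87 ± 0.39 (edgeR adjusted p = 7.4e-06 and 0.00022). Adrb3, Cidec, Thrsp and Cfd of the adipocyte list and Cox8b and Dio2 of the brown fat list fell too.

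The summed brown fat markers were 39.3 to 42.5 CPM in ergothioneine kidneys and 58.8 to 76.8 CPM in untreated kidneys, and Prdm16 gave a mean of 36.5 CPM of that in ergothioneine kidneys and 35.9 CPM in untreated kidneys. The summed adipocyte markers were 107 to 135 CPM in ergothioneine kidneys and 121 to 147 CPM in untreated kidneys, which overlapped. Car3 gave a mean of 70.8 CPM of that in ergothioneine kidneys and 57.1 CPM in untreated kidneys, and Lipe 26.7 and 27.7 CPM. Car3, Lipe and Pparg were the tested adipocyte markers that were not called, with log2 fold changes of 0.31, -0.06 and -0.70. No marker of either list was at 0 in all 7 libraries. Of 10 myelin, Schwann cell and neuron markers, 3 were tested and 0 were called, and Snap25 was at 0 in all 7 libraries. By edgeR 0 of the 3 were at an unadjusted p under 0.05, and DESeq2 and limma-voom called 0. The part of the fat markers in the Nat8l difference was not tested.

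**Figure D4:**
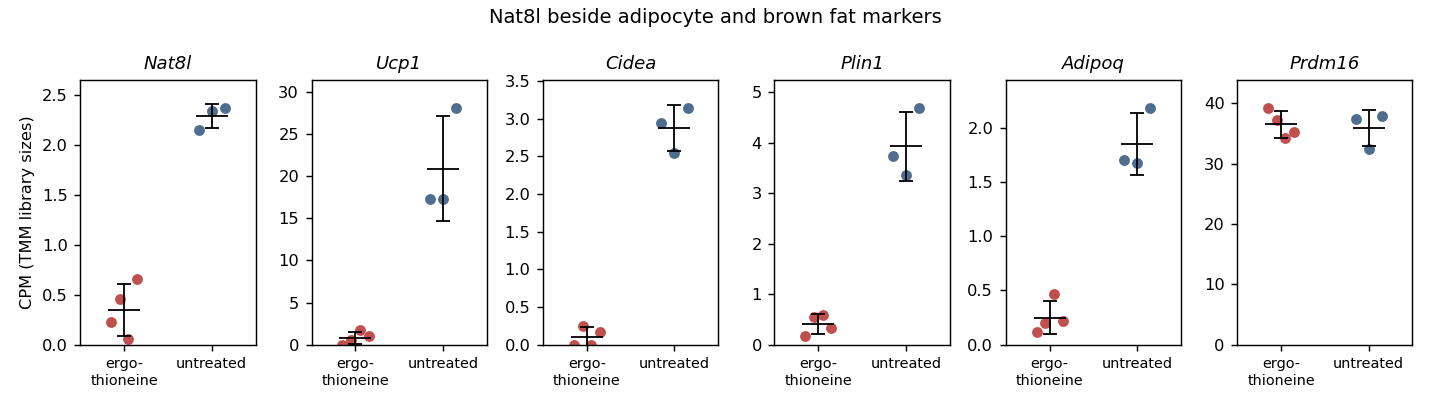
CPM of Nat8l, of the fat markers Ucp1, Cidea, Plin1 and Adipoq, and of Prdm16 in each kidney (points), with mean and SD (bars), ergothioneine left and untreated right. The first 5 genes are lower in every ergothioneine kidney than in any untreated kidney, while Prdm16 overlaps, with means of 36.5 CPM in ergothioneine kidneys and 35.9 CPM in untreated kidneys.

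Markers of tubule segments were set beside the NAT8 genes, since Nat8 is a proximal tubule gene. Of 8 markers of the last proximal segment, S3, 4 fell (Slc22a30, Slc7a13, Atp11a and Slc5a8, by 0.36 to 0.61 log2 units) and 0 rose, by edgeR, DESeq2 and limma-voom, and at an unadjusted p under 0.05 the counts were also 4 and 0. Their summed level was 3307 to 3510 CPM in ergothioneine kidneys and 4530 to 4633 CPM in untreated kidneys, with no overlap. Of that, Atp11a gave a mean of 1767 CPM in ergothioneine kidneys and 2371 CPM in untreated kidneys, and Slc7a13 625 and 921 CPM. Slc5a1, Cyp7b1, Bcat1 and Slc7a12 were not called, with log2 fold changes of -0.02, 0.06, -0.42 and -0.35, and their groups overlapped. Of 9 markers of segments S1 and S2, 2 fell, the gluconeogenic gene Pck1 by 1.22 and the dicarboxylate transporter gene Slc13a3 by 0.31, and the creatine synthesis gene Gatm rose by 0.24. Their sums overlapped at 17171 to 18671 CPM in ergothioneine kidneys and 17641 to 21562 CPM in untreated kidneys.

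Of 9 distal markers 4 rose (Atp6v1g3, Slc4a1, Slc26a4 and Slc12a1) and 0 fell (0 also at an unadjusted p under 0.05 by edgeR, and by DESeq2 and limma-voom), with sums of 5778 to 6548 CPM in ergothioneine kidneys and 5193 to 5511 CPM in untreated kidneys. Among glomerular, vascular and immune markers, Acta2 rose and Ptprc fell, and the sums of the list overlapped at 393 to 407 CPM in ergothioneine kidneys and 367 to 403 CPM in untreated kidneys. No marker of these 4 lists was at 0 in all libraries. Distal calls numbered 2 without untreated kidney 3, without ergothioneine kidney 1 or against untreated kidney 3 alone, and 0 on TPM. The S1 and S2 calls numbered 1 in the same 3 fits on counts, and the glomerular, vascular and immune calls numbered 1 without ergothioneine kidney 2. The part of segment makeup in the NAT8 differences was not tested.

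Other steps of the mercapturate pathway moved in both directions. Of 23 tested genes of a list that leaves out the 8 enzymes, 4 rose, 3 fell and 16 were not called, with a median log2 fold change of -0.09. At an unadjusted p under 0.05 by edgeR, 5 were higher and 8 lower, and 15 of the 23 log2 fold changes were below 0. On log2(TPM + 1), where the median gene was at -0.31, 0 rose and 6 fell. On the count scale the risers were Ggt6, a gamma-glutamyltransferase family gene, by 0.68 ± 0.13, and Abcc2, an apical exporter of conjugates, by 0.33 ± 0.08 (SE; edgeR adjusted p = 0.0043 and 0.015). Dpep1, the brush-border dipeptidase that makes cysteine conjugates, rose by 0.24 ± 0.07, and Got1, an aminotransferase with lyase activity toward such conjugates, by 0.24 ± 0.06 (SE; edgeR adjusted p = 0.043 and 0.026). The genes that fell were flavin monooxygenases, which oxidise sulfur and nitrogen compounds: Fmo5 by 0.44 ± 0.09, Fmo2 by 0.33 ± 0.09 and Fmo1 by 0.27 ± 0.08 (SE; edgeR adjusted p = 0.011, 0.040 and 0.036).

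The major gamma-glutamyltransferase gene Ggt1, which starts the trimming of glutathione conjugates, averaged 761 ± 68.0 CPM in ergothioneine kidneys and 881 ± 15.9 CPM in untreated kidneys (SD, n = 4 and 3). Its log2 fold change of -0.21 ± 0.07 was not called (edgeR adjusted p = 0.089), although the groups did not overlap. The 7 calls of the list were 3 without untreated kidney 2 and 4 without untreated kidney 3, ergothioneine kidney 1 or ergothioneine kidney 2, and against untreated kidney 3 alone they were 3.

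Among other genes of N-acyl amino acid metabolism, 2 of 21 tested fell by edgeR, 0 rose and the median was -0.12. At an unadjusted p under 0.05, 6 were lower and 0 higher, and DESeq2 and limma-voom called 3 and 2 lower and 0 higher. On log2(TPM + 1) 7 were lower and on log2(TPM + 0.1) 8, scales on which the median of all tested genes was -0.31 and -0.37, and 0 were called once short non-coding genes were taken out of the TPM scale. Cndp1, which encodes the dipeptidase carnosinase 1, fell by 0.55 ± 0.08, and Slc13a3, whose transporter carries dicarboxylates including N-acetylaspartate, fell by 0.31 ± 0.08 (SE; edgeR adjusted p = 0.0013 and 0.019). The count was 1 without untreated kidney 1, untreated kidney 3 or ergothioneine kidney 1, and also against untreated kidney 3 alone. Nat3 of this list was at 0 in all libraries.

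Levels of the enzymes relative to each other were compared per transcript length, in TPM. Acy3 was highest, at 548 ± 128 TPM in ergothioneine kidneys and 936 ± 205 TPM in untreated kidneys, and Nat8f1 followed at 230 ± 24.2 TPM in ergothioneine kidneys and 322 ± 37.7 TPM in untreated kidneys (SD, n = 4 and 3). Over all 7 kidneys the mean was 714 TPM for Acy3, 269 for Nat8f1, 123 for Aspa, 101 for Nat8, 95.3 for Acy1, 41.5 for Kyat1, 21.3 for Nat8f2 and 0.206 for Nat8l. Each neighbouring pair was compared within kidneys by an exact sign-flip permutation test, two-sided, over 7 differences in log2(TPM + 0.1). The order, and so the pairs, came from the means of the same 7 kidneys. The p-values therefore describe how steady that order was among these kidneys.

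In 5 of the 7 pairs all 7 kidneys had the order of the means (exact permutation p = 0.016, the smallest that 7 kidneys can give, and 0.022 adjusted over the 7 pairs by Benjamini-Hochberg). Acy3 was above Nat8f1 by 1.35 ± 0.29 log2 units, and Nat8f2 was above Nat8l by 6.39 ± 0.80 (SD, n = 7). Aspa was above Nat8 in 6 of 7 kidneys, by 0.32 ± 0.30 (SD; exact permutation p = 0.047, adjusted 0.055). This pair differed between the groups. The means of Aspa and Nat8 were 101 and 70.5 TPM in ergothioneine kidneys, against 151 and 142 TPM in untreated kidneys. Nat8 and Acy1 were not separated, with Nat8 higher in 5 of 7 (0.06 ± 0.22, SD; exact permutation p = 0.55). On counts per kilobase of the longest annotated transcript Aspa was below Nat8 in all 7 kidneys, by a log2 difference of -1.01, and Nat8 was above Acy1 in all 7, by 0.99 (exact permutation p = 0.016 for each, also after adjustment). The order among Aspa, Nat8 and Acy1 therefore depends on the transcript length used.

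**Figure D5:**
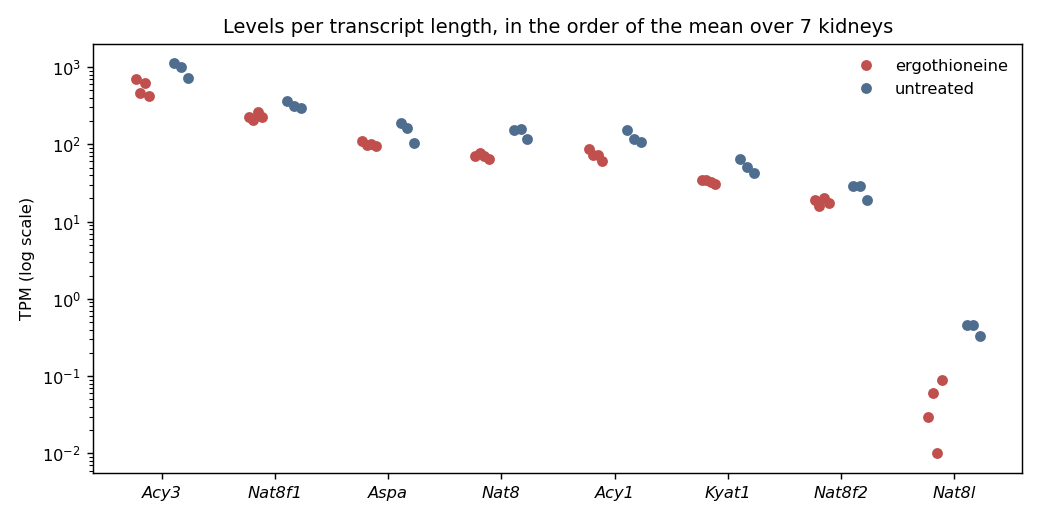
TPM (log axis) of the 8 enzyme genes in each kidney, ergothioneine left and untreated right, ordered by the mean over 7 kidneys. Acy3 is highest at a mean of 714 TPM and Nat8l lowest at 0.206 TPM. On a TPM scale the median of all genes is itself shifted by -0.31 log2 units between ergothioneine and untreated kidneys.

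The genes whose pattern over the 7 kidneys lay nearest to Nat8l and Nat8, the enzymes with the largest SD of log2 CPM (1.53 and 0.35), were sought among 14411 genes by the root mean square difference of centred log2 CPM. Any gene with a like difference between the groups scores well on this measure. Nearest to Nat8l were Hk2, a hexokinase gene (0.53 log2 units, 0.234 to 0.810 CPM in ergothioneine kidneys and 1.47 to 2.63 CPM in untreated kidneys), then Ciart (0.66), Ighg2b (0.73), Mogat2 (0.73) and Per2 (0.75). Nearest to Nat8 were Hyal1, a hyaluronidase gene (0.049 log2 units, 9.32 to 11.03 CPM in ergothioneine kidneys and 13.7 to 16.8 CPM in untreated kidneys), then Stk35 (0.090), Prex2 (0.096), Hlf (0.096) and Sncg (0.097).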

How the data were processed

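RNA of 7 mouse kidneys was sequenced from ribosome-depleted stranded libraries, per the labels' protocols. For 45706 Ensembl genes the authors deposited expected counts and, in a second file, TPM; 3.61% of the deposited expected counts were not whole. Per the submitters' processing notes, the tools included STAR 2.7.10a, RSEM 1.3.1, Salmon 1.10.1, Subread 2.0.1 and DESeq2 with the build GRCm38, without stated roles; the sources used here do not state the annotation release or the counting strand. Symbols and positions came from GENCODE M21, which held 45143 of the identifiers, and promoters from RefSeq (GRCm38.p6), matched by symbol for 12 of the 14 enzymes and paralogs.

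After rounding, the expected counts went into edgeR 4.0.16 (R 4.3.3) with TMM scaling, its filterByExpr filter by group, the robust quasi-likelihood test, Benjamini-Hochberg adjustment and a threshold of 0.05, which left 15399 genes. At 14843899 to 19791575 counts per library the median SE was 0.11 log2 units. The edgeR test was tested on simulated data. The alternatives were DESeq2 1.42.0, limma 3.58.1 (voom, and limma-trend on log2 TPM with pseudocounts of 1 and 0.1), other scalings, no low-count filter, omission of each library, blocks by replicate and by index number, and omission of short non-coding genes (under 400 nt). The contrast with untreated kidney 3 alone and the summed cluster were added after seeing the data. In that contrast the spread comes from the ergothioneine kidneys alone, so its counts of calls are not comparable with those of the main test.

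The enzymes and gene lists were chosen with earlier results of these data known. All enzymes and NAT8 paralogs are named, and of each other list up to 6 called genes per direction. Fabp4 of the adipocyte list passed the threshold too. Ggt1, Prdm16, Car3, Lipe, Pparg, Slc5a1, Cyp7b1, Bcat1 and Slc7a12 were named after their values were seen. A member of the glomerular, vascular and immune list was kept in its counts and sums but is not reported here.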

Additional observations from a re-analysis of the deposited data

Results flagged for a closer look

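Nat8f5 had 14.4 CPM in ergothioneine kidney 2, against 8.23 to 8.35 CPM in the other 3 kidneys of that group. Its gap to the nearest of them was 0.98 of the group's range, above Dixon's critical value for 4 samples. Of 45 genes examined this way, 1 stood out, and chance alone marks about 1 in 20 groups.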

How the results depend on the processing

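Nat8, Nat8l, Nat8f3 and Nat8f7 kept their direction and their call under all 20 alternatives. Nat8f5 and Nat8f6 kept their direction under all 20 and their call under 19. The 20 include the fits on TPM as deposited and the fit against untreated kidney 3 alone, whose calls are not comparable with those of the main test. Of all genes, 1102 were called in the main test, 272 on log2(TPM + 1) rescaled without short non-coding genes and 556 against untreated kidney 3 alone. Leaving out each kidney gave 692 (without ergothioneine kidney 1; 710 without ergothioneine kidney 2) to 1103. Of the 8 enzymes, 3 were called in the main test and 5 on log2(TPM + 1) and on log2(TPM + 0.1), and 2 on rescaled TPM. On the TPM scale as deposited, Acy3 and Kyat1 were the additions, the median of all genes was -0.31 and -0.37, and the split of all called genes was 54 higher and 1484 lower on log2(TPM + 1). Of the list genes, 37 were called in the main test, 19 on rescaled TPM, 23 against untreated kidney 3 alone and 27 to 36 without each kidney. The log2 fold change of Nat8f1 was -0.178 to 0.054 without each kidney, positive only in the fit without untreated kidney 3, and Nat8f4 had -0.075 on log2(TPM + 1) and -0.091 on log2(TPM + 0.1). Of the neighbouring pairs in the order of levels, 5 to 6 were separated in the stated direction in each alternative. On counts per kilobase of the longest transcript, Aspa and Nat8 were separated in the reverse direction (-1.01).

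Same-numbered kidneys of the groups did not deviate together (correlations 0.027, -0.068 and 0.0027), not every kidney was closest to its own number, and the numbers are not taken to pair them. With the replicate block, which leaves out ergothioneine kidney 4, 806 genes were called and the same number of enzymes, 3. Depth limits Nat8l, with 1 to 12 counts per ergothioneine kidney. The causes of these shifts were not tested.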
